A study of Mus musculus with 165 samples.

Results

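The phagocyte NADPH oxidase subunits *Cybb*, *Cyba*, *Ncf1*, *Ncf4*, *Rac1* and *Rac2* were followed through the differentiation of PUER cells in GCSF and in IL3. These 6 genes were taken by symbol from a table of 36255 genes, and all 6 were present and passed the filter on low values. The oxidase is the enzyme with which phagocytes make superoxide. Its membrane part, flavocytochrome b558, is a dimer of gp91phox, the catalytic subunit encoded by *Cybb*, and p22phox, the partner encoded by *Cyba* that the catalytic chain needs to be stable. Upon stimulation, the cytosolic proteins p47phox (*Ncf1*, the organizer) and p40phox (*Ncf4*, which binds a phosphoinositide on phagosomes) move to the membrane together with a GTP-bound Rac. Rac1 is found in nearly all cells, whereas Rac2 is largely restricted to blood cells. Loss of *CYBB*, *CYBA*, *NCF1* or *NCF4* causes chronic granulomatous disease in people, and *Cybb* and *Ncf1* are textbook targets of the transcription factor PU.1.

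In PUER cells PU.1 can be switched on at will. The *Spi1* gene, which encodes PU.1, was knocked out in the mice of origin (*Spi1*-/-), and the line, which grows in IL3, instead makes a PU.1 and estrogen receptor hybrid that is inactive until 4-hydroxytamoxifen (OHT) binds it. The cells come from a single line, so the fusion protein and the missing endogenous PU.1 are common to every group. RNA-Seq covered undifferentiated cells (IL3, no OHT, 3 libraries), and cells kept 48 h in GCSF in place of IL3 without OHT yet (GCSF 0h, 3 libraries). OHT was then followed at 27 times up to 168h, in GCSF (GCSF-OHT, 100 nM, 78 libraries) and in IL3 (IL3-OHT, 200 nM, 81 libraries). The titles of the GCSF 0h libraries name OHT, whereas their descriptions and the study's methods place them before it. Undifferentiated cells are the start of the IL3 course and GCSF 0h cells that of the GCSF course. Because the courses differ in cytokine, in OHT dose and in the 48 h pre-treatment, these cannot be told apart. Each time point had a culture plate of its own, fresh OHT and medium were given at 40h, 88h and 136h, and cells were detached with trypsin after 24h, so that time, plate and handling cannot be told apart either.

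Each group had 3 libraries except GCSF-OHT 96h, 112h and 152h, which had 2. Between 14600246 and 33147945 reads fell on genes in a library (median 21960878), and 3 reads corresponded to 1.96 to 5.51 normalized counts. *Spi1*, whose endogenous and fusion reads cannot be told apart here, ranged from 9799 to 10267 normalized counts in undifferentiated libraries and from 12464 to 12811 in GCSF 0h libraries. After OHT it ranged from 4482 to 12716 in IL3 and from 7347 to 13387 in GCSF. All 12 neutrophil markers were above 3 reads in at least 1 library of each set. Of the macrophage or monocyte markers, 11 of 11 were above 3 reads in at least 1 library after OHT in both courses. In undifferentiated libraries 10 of the 11 were, without *Fcgr1*. In GCSF 0h libraries 7 of the 11 were, without *Csf1r*, *Mmp12*, *Mrc1* and *Msr1*. The 6 mast cell, basophil and eosinophil markers summed to at most 294 normalized counts, with *Cpa3*, *Fcer1a* and *Ear1* at 3 reads or fewer in every library outside IL3-OHT 96h and 144h, which were not counted here. The libraries of 120h carry another name prefix than all others, and the third library of GCSF-OHT 104h stood farthest from its group. The authors excluded IL3-OHT 96h and 144h, and the tests below leave out these time points except where they are named.

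Promoters are shown because OHT activates PU.1, an ETS family factor, and *Cybb*, *Cyba* and *Ncf1* changed by very different amounts after OHT. They are the 250 bases before the RefSeq start of transcription (GRCm38.p6), written 5′ to 3′ on the strand of the gene, with the ETS core GGAA or its reverse complement TTCC in capitals. RefSeq promoters were matched for these 3 of the 6 genes. The windows are chrX:9469325-9469574 (minus strand) for *Cybb*, chr8:122432941-122433190 (minus strand) for *Cyba* and chr5:134229626-134229875 (minus strand) for *Ncf1*.
Cybb: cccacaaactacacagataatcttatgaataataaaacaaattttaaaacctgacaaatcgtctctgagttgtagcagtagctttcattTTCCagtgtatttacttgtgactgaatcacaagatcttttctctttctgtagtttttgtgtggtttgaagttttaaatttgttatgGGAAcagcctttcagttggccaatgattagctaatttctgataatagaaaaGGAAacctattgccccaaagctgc
Cyba: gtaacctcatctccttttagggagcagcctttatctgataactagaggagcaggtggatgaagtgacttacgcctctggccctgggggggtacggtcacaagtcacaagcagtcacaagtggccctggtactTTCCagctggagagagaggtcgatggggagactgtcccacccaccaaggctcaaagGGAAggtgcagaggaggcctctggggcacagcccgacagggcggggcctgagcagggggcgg
Ncf1: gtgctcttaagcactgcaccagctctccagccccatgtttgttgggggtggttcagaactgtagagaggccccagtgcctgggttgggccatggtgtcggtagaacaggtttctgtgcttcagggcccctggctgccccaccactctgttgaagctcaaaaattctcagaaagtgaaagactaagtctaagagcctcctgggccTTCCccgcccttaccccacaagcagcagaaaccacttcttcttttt

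The *Cybb* window holds GGAA 2 times as written and 1 time in reverse, with first bases at -161, -75 and -24 from the start. The *Cyba* window holds it 1 time in each direction, and the *Ncf1* window holds 1 reverse copy at -46. The core is common, since 93.4% of 32851 promoter windows of this length hold at least 1 copy and the median window holds 3. The longer sequence GAGGAA, searched on both strands, is in 23.3% of windows and in none of these 3. A match in letters is a description of the window and says nothing of binding.

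The undifferentiated cells already held most of the oxidase messages in quantity, but hardly any *Cybb*, which codes for the catalytic subunit. The 3 undifferentiated libraries had 1.31, 0 and 2.36 normalized counts of *Cybb*, which were 1, 0 and 2 reads. *Ncf4* had 9.16, 18.4 and 22.5 normalized counts (7, 18 and 19 reads). *Cyba* stood at 4911, 4844 and 4877, *Ncf1* at 4481, 4254 and 4747, *Rac1* at 5839.7, 5912 and 5914 and *Rac2* at 6652, 6823 and 6610.5 normalized counts. Divided by the length of the longest annotated coding transcript, the mean levels in normalized counts per kilobase were 6555 for *Cyba*, 2204 for *Rac2*, 1559 for *Ncf1*, 1416 for *Rac1*, 11.4 for *Ncf4* and 0.258 for *Cybb*. The same order of the 6 genes was found in GCSF 0h, IL3-OHT 168h and GCSF-OHT 168h cells. In GCSF-OHT 168h cells the per-kilobase levels were 8549 for *Cyba*, 567 for *Ncf4* and 322 for *Cybb*. The message of the catalytic subunit was the lowest of the 6 per length in these 4 groups, and the other groups were not compared in this way. The place of *Rac1* depends on the transcript taken, since with the shorter coding transcript its undifferentiated level would be 2533 per kilobase.

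**Figure D1:**
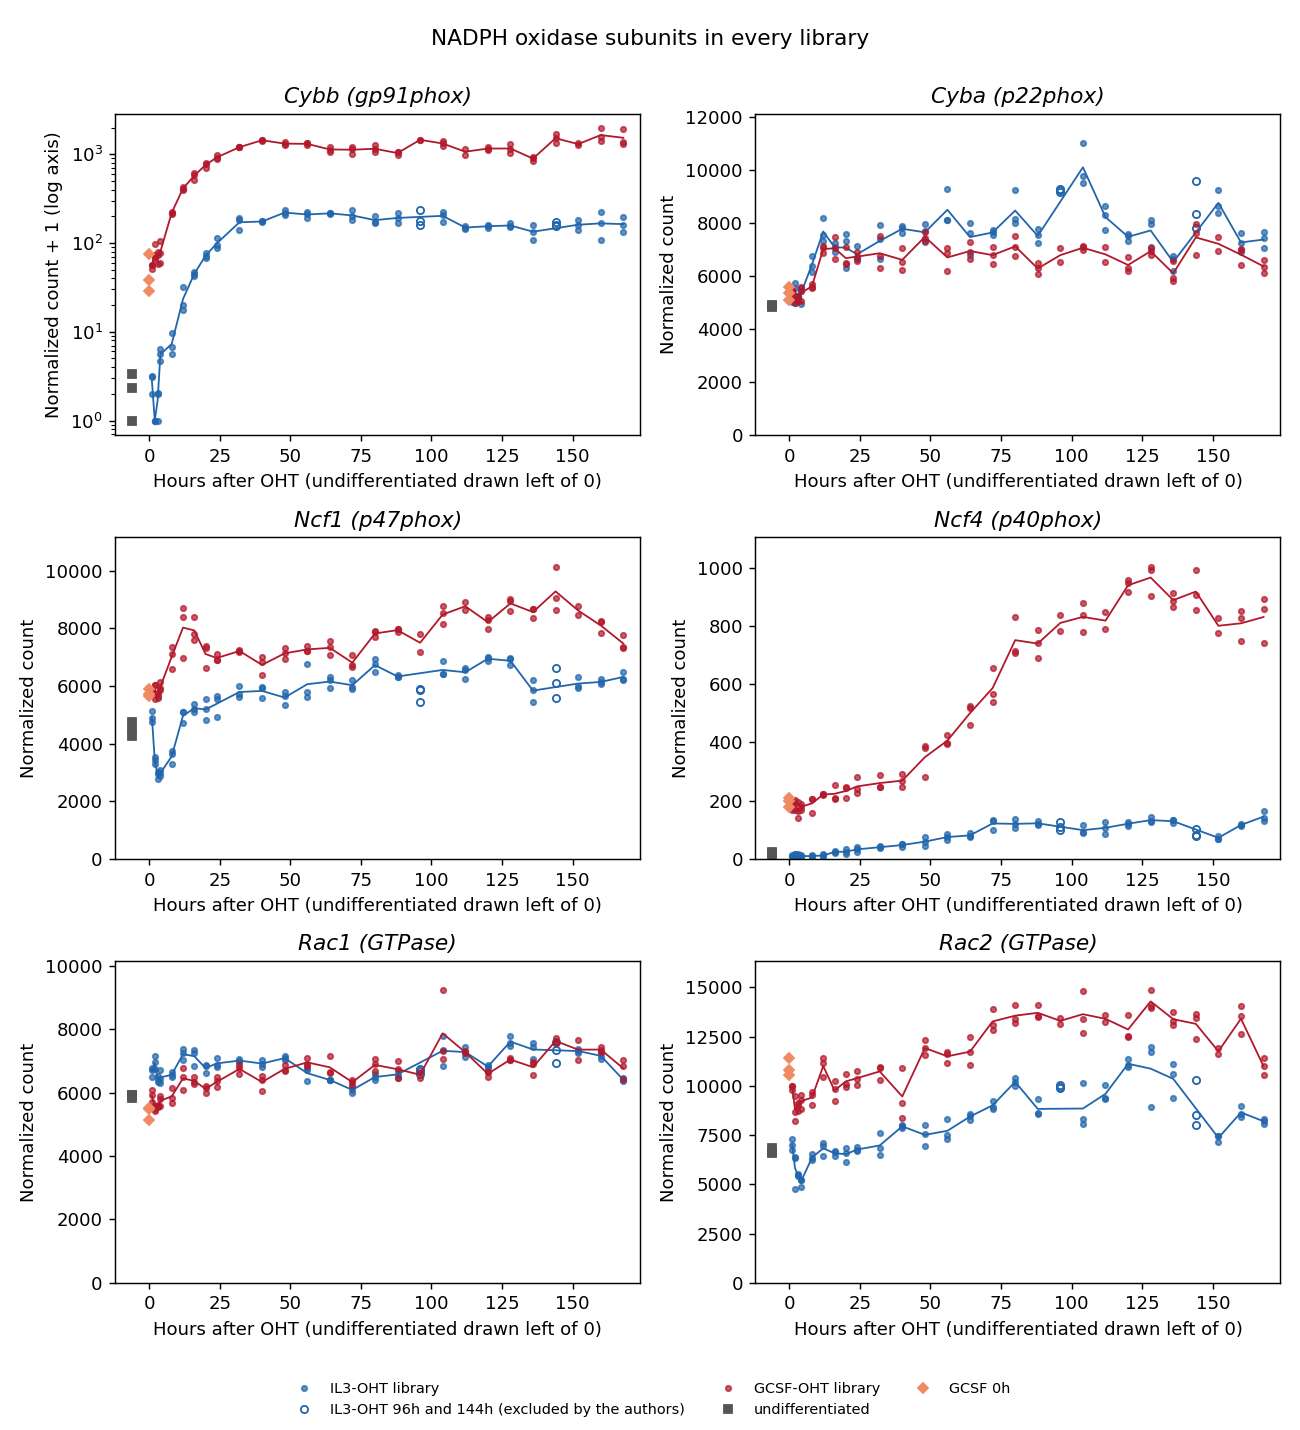
Normalized counts of the 6 oxidase subunits in each library against hours after OHT, with lines through the group means of each course, *Cybb* on a log axis after adding 1, and IL3-OHT 96h and 144h as open circles. All GCSF-OHT libraries lie above all IL3-OHT libraries of the same time for *Cybb*, *Ncf1*, *Ncf4* and *Rac2* at 25 of 25 time points, whereas those of *Cyba* and *Rac1* lie wholly below at 13 and 15 time points, above at 1 and 4, and overlap at 11 and 6. The share of all genes separated in this way was not counted.

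Rac1 and Rac2 are closely related GTPases, and their sequences are compared because reads of similar genes can be shared between them. Their coding sequences are both 579 bases long and share 446 of them, and the longest stretch without a difference is 29 bases. The last 60 bases, which encode the tail that anchors and targets these GTPases to membranes, differ at 28 bases. They are printed from GENCODE vM21 transcripts with the differing bases in capitals.
Rac1: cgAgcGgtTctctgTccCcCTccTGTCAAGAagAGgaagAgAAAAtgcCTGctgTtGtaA
Rac2: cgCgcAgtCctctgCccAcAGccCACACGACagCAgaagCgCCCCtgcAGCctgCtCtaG

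No other annotated transcript matched a subunit at 95% identity or more over at least 150 bases, apart from 2 genes that overlap one on the opposite strand. *Rac1* (ENSMUSG00000001847, chr5:143503634-143528036, minus strand) shares 2309 exon bases with *Daglb*, and *Ncf1* (ENSMUSG00000015950, chr5:134220053-134229625, minus strand) shares 408 with *Gtf2ird2*. The strand setting is not stated in the sources used here, so reads from these shared bases cannot be told apart. *Daglb* ran from 163.1 to 183.2 normalized counts in undifferentiated libraries and from 627 to 772 in GCSF 0h libraries. It ran from 176.6 to 772 in IL3-OHT and from 689 to 1585 in GCSF-OHT, and *Gtf2ird2* was at most 912 in any library. The other subunits are *Cybb* (ENSMUSG00000015340, chrX:9435252-9487771, minus strand), *Cyba* (ENSMUSG00000006519, chr8:122424776-122432930, minus strand), *Ncf4* (ENSMUSG00000071715, chr15:78244801-78262580, plus strand) and *Rac2* (ENSMUSG00000033220, chr15:78559167-78572783, minus strand). *Ncf4* and *Rac2* lie on the same chromosome, and *Ncf1* and *Rac1* share another.

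The first question was what the GCSF pre-treatment did to the subunits before PU.1 was activated. *Cybb*, *Ncf4* and *Rac2* rose, and *Cyba*, *Ncf1* and *Rac1* did not pass the thresholds, so that 3 of 6 subunits were called against 33.7% of 17414 genes. A gene is called where limma's adjusted p is under 0.05 and the log2 fold change of normalized count + 1 is past 0.58, and this scale understates changes of low genes. In bulk RNA, fewer cells with a message and less message per cell cannot be told apart.

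*Cybb* went from the 3 reads given above to 27.7, 74.4 and 37.3 normalized counts in GCSF 0h libraries. The ratio of reads per depth was 40.4-fold (95% exact counting interval 13.6 to 198.3), and the log2 fold change was 4.46 ± 0.21, adjusted p = 1.10e-39. The groups did not overlap, but the second GCSF 0h library was about as high as both others together, and the fitted fold depends on the added count because the starting level is so low. *Ncf4* rose to 209.8, 179.7 and 199, a ratio of 11.5-fold (95% exact counting interval 8.48 to 16.0) and a log2 fold change of 3.56 ± 0.19, adjusted p = 2.83e-34. *Rac2* rose to 10539.8, 10794 and 11415 (0.70 ± 0.07, adjusted p = 2.94e-17), with all 3 libraries above all undifferentiated ones. *Ncf1*, at 5893, 5727 and 5640.3, also lay above all undifferentiated libraries, but its log2 fold change of 0.36 ± 0.05, adjusted p = 1.57e-09 was under 0.58. *Cyba* differed by 0.13 ± 0.06, adjusted p = 0.0551. *Rac1* was at 5470.0, 5133 and 5519, below all undifferentiated libraries, with a log2 fold change of -0.13 ± 0.04, adjusted p = 0.00328, which is short of the fold threshold. The summed level of the 12 neutrophil markers was 262399.8 to 268984 normalized counts in the undifferentiated libraries and 341506 to 379665 in the GCSF 0h libraries, and its part in these results was not tested.

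The second question was how far the subunits changed over 7 days of active PU.1 in each cytokine. In IL3, *Cybb*, *Ncf4* and *Cyba* rose from undifferentiated cells to 168h, 3 of 6 subunits against 25.4% of all genes. In GCSF, *Cybb*, *Ncf4*, *Ncf1* and *Rac2* rose from undifferentiated cells to 168h, 4 of 6 against 39.1%. Both comparisons share the undifferentiated libraries. From GCSF 0h to GCSF-OHT 168h only *Cybb* and *Ncf4* were called, 2 of 6 against 24.8%.

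At 168h, *Cybb* stood at 156.8, 197.6 and 132 normalized counts in IL3-OHT and at 1304, 1367 and 1922 in GCSF-OHT. Against the 3 reads of the undifferentiated cells these are ratios of 140.5-fold (95% exact counting interval 47.8 to 684) and 1349.9-fold (95% exact counting interval 462 to 6548). Against GCSF 0h, where the libraries had 30, 84 and 40 reads, *Cybb* rose 33.4-fold (95% exact counting interval 28.4 to 39.4), with a log2 fold change of 5.11 ± 0.21, adjusted p = 8.04e-45. This interval covers counting error only and not the spread between the GCSF 0h libraries, which ran from 27.7 to 74.4 normalized counts. *Ncf4* reached 130.6, 164.7 and 140.4 in IL3-OHT, a log2 fold change of 3.13 ± 0.19, adjusted p = 1.79e-29. In GCSF-OHT it reached 891, 859 and 741, which is 5.64 ± 0.19, adjusted p = 1.92e-52 from undifferentiated and 2.08 ± 0.19, adjusted p = 8.26e-18 from GCSF 0h. No IL3-OHT 168h library of *Cybb* or *Ncf4* came near the lowest GCSF-OHT library.

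*Cyba* ended at 7649, 7039 and 7426 in IL3-OHT (0.59 ± 0.06, adjusted p = 1.15e-15), barely past the threshold, and the call was lost without the first replicates (0.57). In GCSF-OHT it ended at 6339, 6126 and 6616 with 0.38 ± 0.06, adjusted p = 2.22e-08, under the threshold. *Ncf1* ended at 6465, 6255 and 6213 in IL3-OHT (0.49 ± 0.05, adjusted p = 6.39e-15, under the threshold) and at 7756, 7307 and 7346 in GCSF-OHT (0.73 ± 0.05, adjusted p = 1.25e-25). *Rac2* ended at 8303, 8069 and 8227 in IL3-OHT (0.29) and at 11001, 10553 and 11430.4 in GCSF-OHT (0.71 ± 0.07, adjusted p = 1.13e-17). From GCSF 0h to GCSF-OHT 168h, *Rac2* had a log2 fold change of 0.01 ± 0.07, adjusted p = 0.940, and its libraries overlapped, so that its difference from undifferentiated cells was already there before OHT. *Rac1* differed by 0.12 in IL3-OHT and 0.20 in GCSF-OHT from undifferentiated cells, neither past the threshold.

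*Cybc1*, which codes for a chaperone of the flavocytochrome, had means of 1108, 1664, 1766 and 2614 normalized counts in undifferentiated, GCSF 0h, IL3-OHT 168h and GCSF-OHT 168h cells. It was called higher in GCSF 0h than in undifferentiated cells (0.58, just past the threshold), and at 168h in IL3 (0.67) and in GCSF (1.24). Transcripts of the related oxidases *Nox3*, *Nox4* and *Duox2* and of the partner proteins *Noxa1*, *Duoxa1* and *Duoxa2* stayed under 5 normalized counts in every library and were not tested.

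The time courses show when each subunit changed. All 6 subunits changed over both courses by limma's F test, with adjusted p from 6.59e-90 for *Cybb* to 4.52e-18 for *Rac1* in IL3 and from 1.98e-70 for *Cybb* to 1.46e-24 for *Cyba* in GCSF. Among all genes 14968 and 13299 of 17414 had an adjusted p under 0.05 in the same tests. With the fold threshold, 5 of 6 subunits were called at 1 or more of the 25 time points of the IL3 course, against 73.3% of genes. In the GCSF course 3 of 6 were called at 1 or more of 27 time points, against 52.0%. The median gene was called at 4 time points in IL3 and 1 in GCSF.

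*Cybb* was called at 23 of 25 time points in IL3 and at 26 of 27 in GCSF. In IL3 it had 5 reads in all 3 libraries together at 1h, 0 at 2h and 2 at 3h, then 13 at 4h, 19 at 8h and 71 at 12h. The call at 2h is the only lower one, and it compares 0 reads with 3, so it is at the floor. Normalized counts of *Cybb* at 12h in IL3 were 16.8, 31.2 and 19.1, which is 19.3-fold (95% exact counting interval 6.36 to 96.0) over the undifferentiated libraries. At 24h they were 94.2, 113 and 87.03, and the highest mean of the course came at 48h with 219 ± 14.8 (SD, n = 3). In GCSF, *Cybb* was first called at 2h (0.81 ± 0.21, adjusted p = 0.00138), where its libraries at 68.9, 65.3 and 95.6 overlapped those of GCSF 0h. From 8h, with 222, 213.7 and 218, no library overlapped the start. The 12h libraries had 431, 398 and 403, those of 24h had 918, 874 and 974 and those of 40h had 1457, 1417 and 1438. The later means ran from 892 ± 52.9 at 136h to 1645 ± 289.9 at 160h (SD, n = 3).

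**Figure D2:**
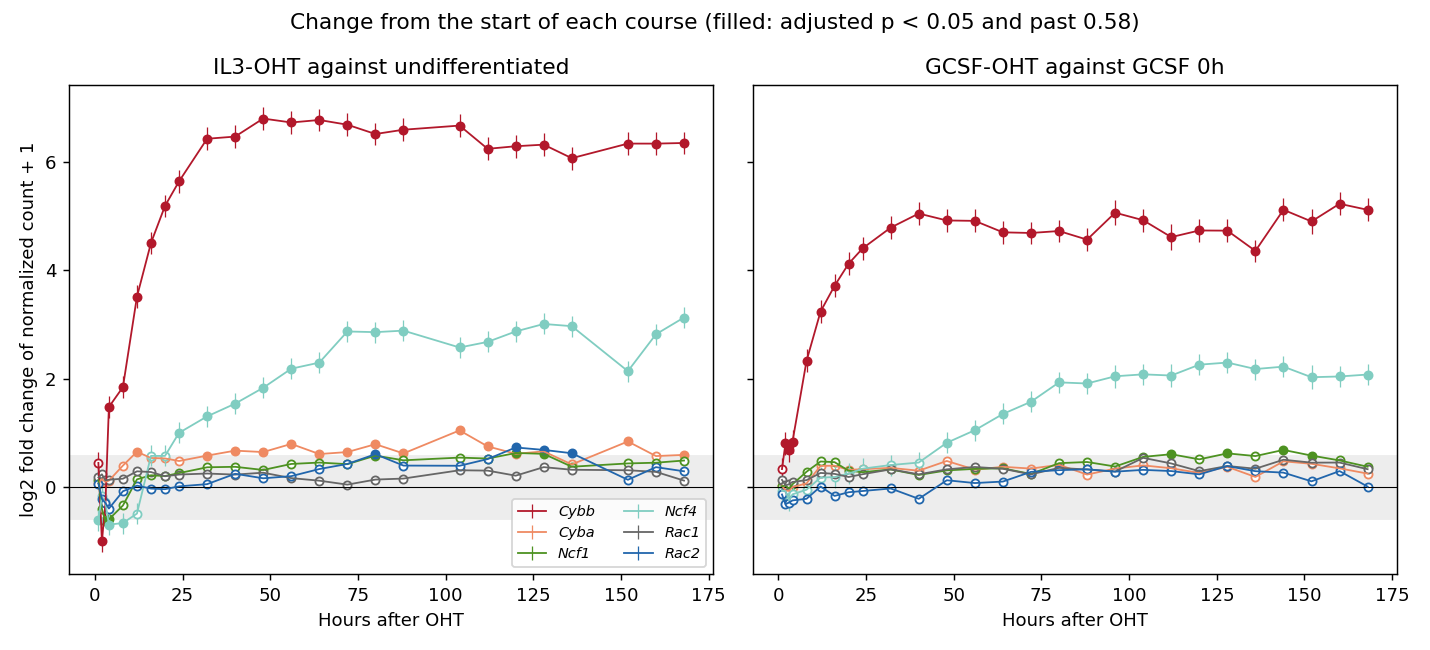
log2 fold change of normalized count + 1 against the start of each course (error bars, standard error from limma), for IL3-OHT against undifferentiated and GCSF-OHT against GCSF 0h libraries, with filled points where a time point was called and the band within 0.58 in gray. *Cybb* reaches 6.79 at 48h in IL3 and 5.22 at 160h in GCSF, *Ncf4* climbs later, and the other 4 subunits stay at or below 1.05.

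*Ncf4*, the phosphoinositide-binding subunit, was slower than *Cybb*. In IL3 it was called higher at 17 time points, from 24h onwards. Its 24h libraries had 25.2, 39.9 and 33.7 normalized counts, the 72h libraries 100.5, 132 and 133.1 and the 136h libraries 132.8, 122.1 and 133.4. The 152h libraries were lower, with 80.3, 67.7 and 69.6, and the 160h libraries were back up, with 117.7, 111.4 and 120.6. It was called lower at 1h, 4h and 8h (-0.61, -0.69 and -0.66), at levels of 5.35 to 14.3 normalized counts that overlapped the undifferentiated libraries. In GCSF it was first called at 48h, with 386, 281 and 381 normalized counts (0.82 ± 0.19, adjusted p = 2.60e-04), and at all 16 time points from then on. The libraries of 40h, at 248, 292 and 267, lay above all GCSF 0h libraries without being called, and the peak came at 128h with 1004, 991 and 903 (2.30 ± 0.19, adjusted p = 2.22e-20). By 40h *Cybb* had a log2 fold change of 5.04, close to its highest value, when *Ncf4* had 0.45.

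*Ncf1*, the organizer, fell before it rose in IL3. Its 1h libraries had 4886, 5117 and 4735 normalized counts. The 2h libraries had 3523, 3428 and 3289, the 3h libraries 2935, 2766 and 3013 and the 4h libraries 3081, 2982 and 2869, each below all 3 undifferentiated ones. The fall was called at 3h (-0.63 ± 0.05, adjusted p = 1.12e-20) and at 4h (-0.59 ± 0.05, adjusted p = 2.84e-19). By 12h it was at 5084, 4709 and 5093, and it was called higher at 80h, 120h and 128h, where it was 6992, 6958 and 6876 at 120h (0.63 ± 0.05, adjusted p = 6.75e-21). In GCSF no early fall was measured. *Ncf1* was at 5594, 5638 and 5741 at 3h, within the range of the GCSF 0h libraries or just below it, and at 5845, 5922 and 6144 at 4h. It was called higher in GCSF at 112h, 128h, 144h and 152h, at 144h with 10138, 8642 and 9053 (0.69 ± 0.05, adjusted p = 2.09e-23). With upper-quartile scaling its called time points went from 5 to 3 in IL3 and from 4 to 2 in GCSF.

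*Cyba*, the partner of the catalytic chain, was called higher at 15 of 25 time points in IL3 and at none of 27 in GCSF. Its highest group was IL3-OHT 104h with 11017, 9759 and 9504 (1.05 ± 0.06, adjusted p = 8.37e-32), and its highest group in GCSF was 48h with 7432, 7319 and 7661 (0.48 ± 0.06, adjusted p = 2.52e-11, under the fold threshold). *Rac2* was called at 80h, 120h, 128h and 136h in IL3 and at no time point in GCSF. At 120h in IL3 its libraries were at 11040.3, 11350.4 and 10966 (0.73 ± 0.07, adjusted p = 5.26e-18), within the range of those of GCSF 0h. By 152h they were at 7164, 7466 and 7439.8. The libraries of 120h are the ones with another name prefix, and the part of that prefix in this value was not tested. In GCSF, *Rac2* lay between -0.31 at 2h and 0.39 at 128h. *Rac1* was called at no time point of either course. Its largest change was 0.54 ± 0.04, adjusted p = 2.28e-23 at GCSF-OHT 104h, with 7318, 7063 and 9223 normalized counts, and the third of these is the library that stands farthest from its group.

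**Figure D3:**
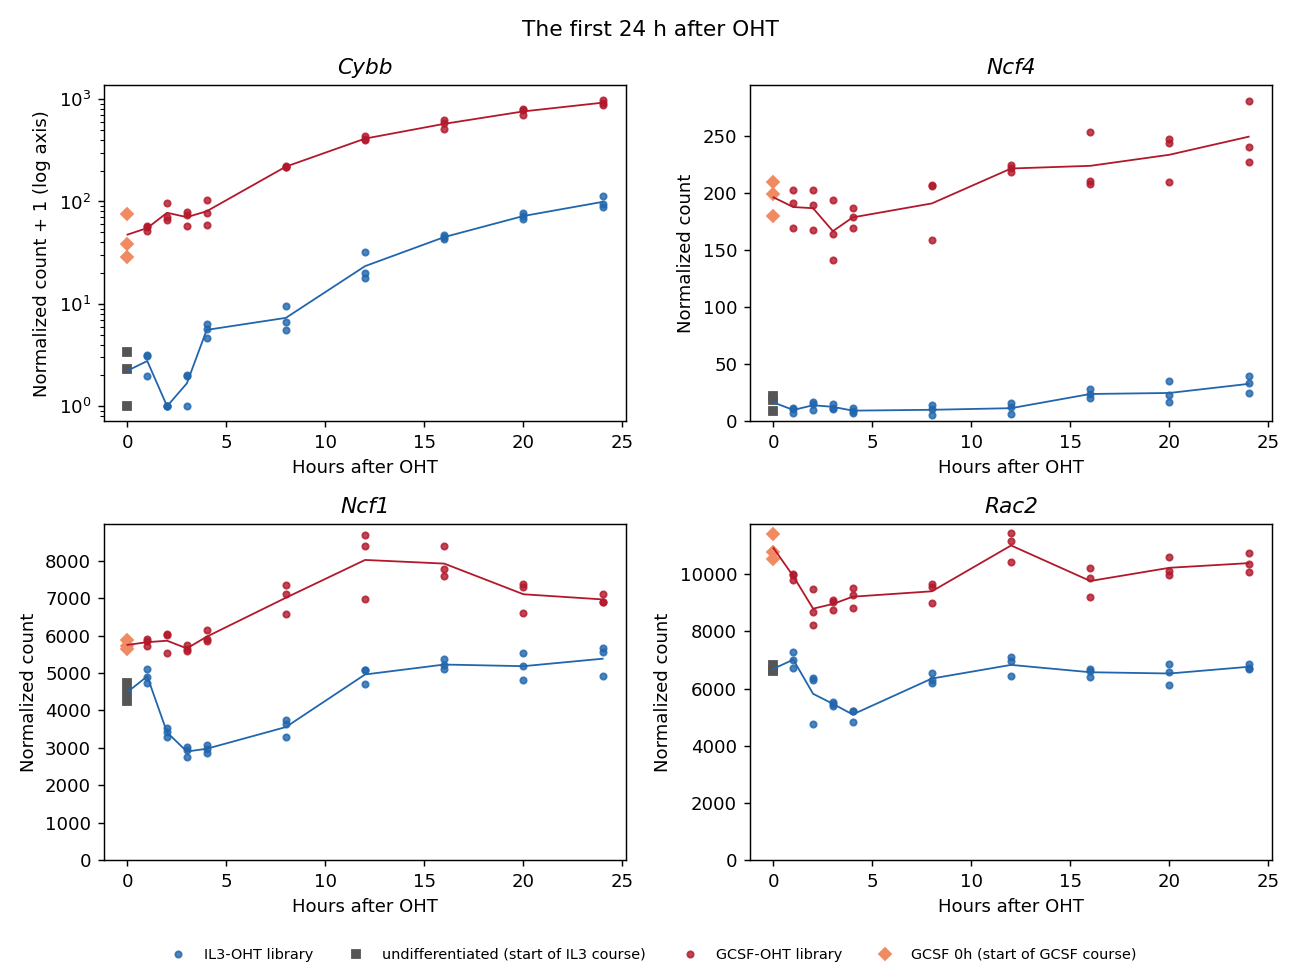
Normalized counts of *Cybb* (log axis, after adding 1), *Ncf4*, *Ncf1* and *Rac2* in each library during the first 24 h after OHT, with lines through the group means and each course starting from its own cells before OHT. In IL3, *Ncf1* drops to a mean of 2904 at 3h (called) and *Rac2* to 5096 at 4h (not called). *Cybb* reaches 98.1 at 24h in IL3 and 922 in GCSF.

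Over all genes tested, the median gene was called in 0 steps between consecutive time points in either course. Of the 6 subunits, *Cybb* and *Ncf4* had called steps in IL3 (10 steps in all), against 47.1% of genes with at least 1, and only *Cybb* had any in GCSF (3 steps), against 24.5%. In GCSF the *Cybb* steps ended at 8h (1.49), 12h (0.91) and 144h (0.76). Each step runs from the time point before it among those kept, so that the IL3 step ending at 152h runs from 136h. Across the GCSF step ending at 144h, *Cybb* went from 832, 929 and 916 to 1524, 1688 and 1333, with fresh OHT and medium given at 136h. In IL3 the *Cybb* steps with more than 3 reads on both sides ended at 12h (1.67), 16h (0.99) and 32h (0.79). Its other called steps in IL3 ended at 2h (-1.43), 3h (0.67) and 4h (1.79) and are at the floor. *Ncf4* had steps in IL3 that ended at 1h (-0.61), 16h (1.06), 152h (-0.83) and 160h (0.68). The excluded 144h libraries had a mean of 87.9 ± 12.1 (SD, n = 3) for *Ncf4*, between the means of 136h (129.4) and 152h (72.5). *Cyba*, *Ncf1*, *Rac1* and *Rac2* had no called step in either course.

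The third question was how the courses differ at equal times after OHT. Averaged over the 25 shared time points, *Cybb* and *Ncf4* were higher in GCSF-OHT, 2 of 6 subunits against 24.5% of genes. The log2 difference was 3.36 ± 0.04, adjusted p = 3.54e-99 for *Cybb* and 3.07 ± 0.04, adjusted p = 1.44e-98 for *Ncf4*. *Rac2* (0.55 ± 0.01) and *Ncf1* (0.45 ± 0.01) were under the fold threshold, *Rac1* was at -0.07 ± 0.01 and *Cyba* at -0.15 ± 0.01. Time point by time point, 4 of 6 subunits were called at 1 or more of the 25, against 77.8% of genes, and the median gene was called at 3.

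*Cybb* and *Ncf4* were called at 25 of 25 time points, *Rac2* at 12, *Ncf1* at 6, and *Cyba* and *Rac1* at 0. The ratio of the group means of *Cybb* was between 5.27 (64h) and 34.6 (8h) over the 23 time points at which the IL3-OHT libraries together had more than 3 reads, with a median of 7.55. At 8h the IL3-OHT libraries had 4.60, 8.57 and 5.71 and the GCSF-OHT libraries 222, 213.7 and 218 normalized counts, and at 64h they had 219.6, 209.3 and 215.9 and 1072, 1115 and 1207. For *Ncf4* the ratio was 4.82 (72h) at the narrowest and was widest at 12h, with a median of 7.57. At 12h its libraries had 6.17, 12.9 and 15.9 in IL3-OHT and 221, 224 and 218 in GCSF-OHT. The log2 difference of *Cybb* was smallest at 64h (2.39) and that of *Ncf4* at 72h (2.27).

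*Ncf1* was called at all time points from 2h to 16h. These hours take in its fall in IL3, but by 12h its IL3-OHT mean (4962) was above that of undifferentiated cells (4494). At 4h the libraries had 3081, 2982 and 2869 in IL3-OHT and 5845, 5922 and 6144 in GCSF-OHT, a ratio of means of 2.01 (1.00 ± 0.05, adjusted p = 6.98e-36). The smallest ratio was 1.13 at 72h, and the median 1.29. *Rac2* differed most at 4h as well, with 5219.8, 4844 and 5225 against 9533, 9283 and 8829, a ratio of 1.81 (0.85 ± 0.07, adjusted p = 4.38e-22), and least at 120h (1.16). All GCSF-OHT libraries of *Cybb*, *Ncf4*, *Ncf1* and *Rac2* were above all IL3-OHT libraries at each of the 25 time points, the uncalled ones included. How many of all genes are separated in this way was not counted. In the averaged comparison 14144 of 17414 genes had an unadjusted p under 0.05 by limma, so separation alone does not set these subunits apart. *Cyba* went the other way at 13 time points, where all GCSF-OHT libraries were below all IL3-OHT libraries, against 1 above and 11 that overlapped. *Rac1* had 15 below, 4 above and 6 overlapping. The ratio of means ran from 0.699 (104h) to 1.07 (1h) for *Cyba* and from 0.791 (2h) to 1.08 (104h) for *Rac1*. Over the 75 IL3-OHT libraries kept and all 78 GCSF-OHT libraries, which here include 96h and 144h, the summed level of the 12 neutrophil markers was 159642 to 382068 in IL3-OHT and 321745 to 869371 in GCSF-OHT, and that of the 11 macrophage or monocyte markers was 17159 to 35775 and 18685 to 29250.5. Their part in the differences was not tested.

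**Figure D4:**
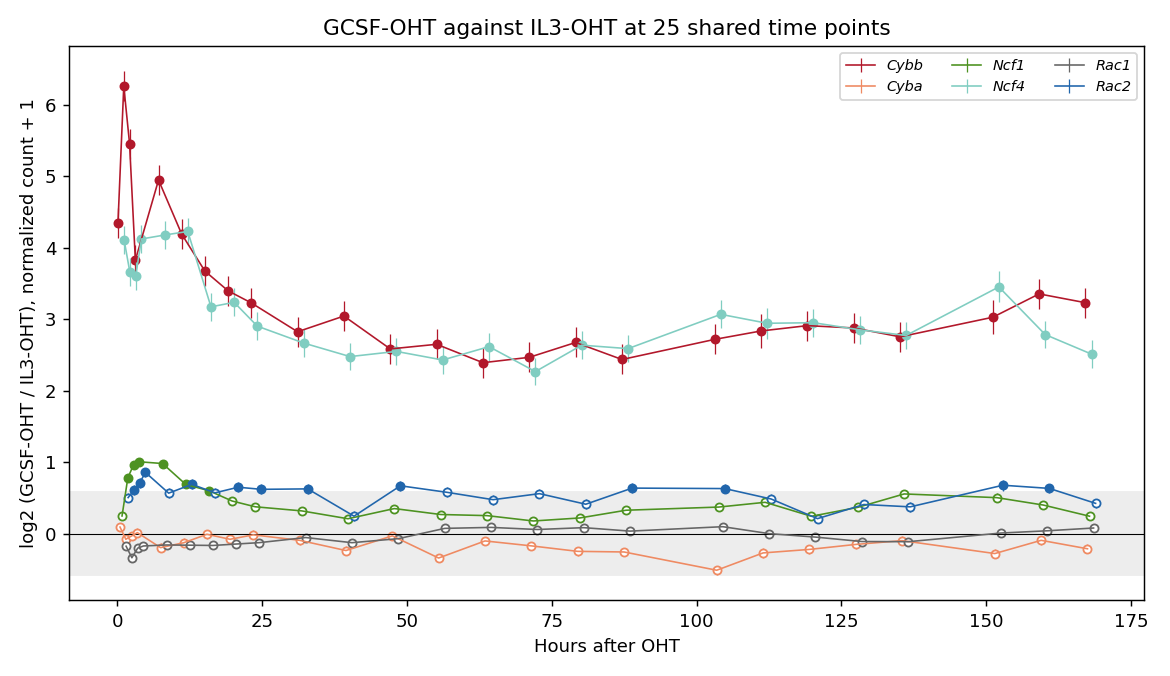
log2 difference of normalized count + 1 between GCSF-OHT and IL3-OHT (error bars, standard error from limma) at the 25 shared times after OHT, with filled points where a time point was called, the band within 0.58 in gray, and points shifted sideways by up to 1 h to keep them apart. *Cybb* and *Ncf4* are at or above 2.27 throughout, *Ncf1* peaks at 1.00 at 4h, and *Cyba* and *Rac1* stay within the band.

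Whether OHT moved a subunit differently in the cytokines was tested as an interaction, in which each course is measured from its own start. At 8h, *Ncf1* was the only subunit called, 1 of 6 against 27.4% of genes, with 0.62 ± 0.07, adjusted p = 1.23e-12. Its libraries were lower than undifferentiated at 8h in IL3 (3281, 3744 and 3647) and higher than GCSF 0h at 8h in GCSF (7349, 6576 and 7109). This call was lost without the first replicates (0.55) and without the third (0.58). *Ncf4* had 0.61 ± 0.27, adjusted p = 0.0584 and *Cybb* 0.48 ± 0.30, adjusted p = 0.188, neither called. The *Cybb* value changed sign with edgeR (-0.11), with DESeq2 (-0.19) and without the first (-0.11) or the third replicates (-0.04), and was called at 1.36 with 5 added, so it has no settled direction. The *Ncf4* value was called when only genes with a mean of at least 10 normalized counts were tested (0.61) and ran from 0.015 to 1.06 without replicates. At 168h, *Cybb* (-1.23 ± 0.30, adjusted p = 2.51e-04) and *Ncf4* (-1.05 ± 0.27, adjusted p = 7.57e-04) were called with a smaller change from their own start in GCSF than in IL3, 2 of 6 against 25.7%. The *Cybb* value rests on the 3 reads of the undifferentiated libraries. It was -0.12 without the second replicates and 0.23 with 5 in place of 1 as the added count. The *Ncf4* value is measured in GCSF from a GCSF 0h level already 11.5-fold (95% exact counting interval 8.48 to 16.0) above undifferentiated. *Cyba*, *Ncf1*, *Rac1* and *Rac2* were between -0.34 and 0.21 at 168h and not called.

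The balance between subunits was read as a ratio within each library. The log2 ratio of *Rac2* to *Rac1* normalized counts, after adding 1 to each, was 0.19 ± 0.02 (SD, n = 3) in undifferentiated, 1.02 ± 0.07 in GCSF 0h, 0.36 ± 0.03 in IL3-OHT 168h and 0.70 ± 0.12 in GCSF-OHT 168h libraries. Per kilobase of the longest coding transcripts the undifferentiated and GCSF 0h ratios became 0.64 and 1.48. The sign of the undifferentiated ratio depends on the transcript taken, since with the shorter coding transcript *Rac1* stood at 2533 and *Rac2* at 2204 per kilobase. In GCSF 0h cells *Rac2* (3593) stayed above *Rac1* (2311) with that transcript. In IL3 the ratio fell to -0.35 ± 0.04 at 4h, stood at 0.65 ± 0.03 at 80h and 0.71 ± 0.01 at 120h, and was 0.01 ± 0.04 at 152h. Over the 75 IL3-OHT libraries kept it ran from -0.50 to 0.72. In GCSF it stayed between 0.35 and 1.15 in all 78 libraries after OHT. The message of the blood-cell GTPase thus gained on that of the ubiquitous one during the pre-treatment. Reads from the bases that *Rac1* shares with *Daglb* cannot be told apart, and their part in this ratio was not tested. In IL3 the balance differed between the time points named by more than the spread within those groups. That spread does not cover differences between plates, since each time point had its own, and the 120h libraries carry another name prefix.

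The log2 ratio of *Cybb* to *Cyba*, whose products pair in the flavocytochrome, was -6.94 ± 0.69 in GCSF 0h, -5.52 ± 0.34 in IL3-OHT 168h and -2.08 ± 0.26 in GCSF-OHT 168h libraries, after adding 1 to each count. In undifferentiated libraries it was -11.27 ± 0.89, which moved to -9.63 with 5 added in place of 1. Without the logarithm, the mean ratio was 0.00865 in GCSF 0h, 0.0221 in IL3-OHT 168h and 0.240 in GCSF-OHT 168h cells. Transcript length is not taken into account in these ratios, so they compare groups and not the genes with each other.

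**Figure D5:**
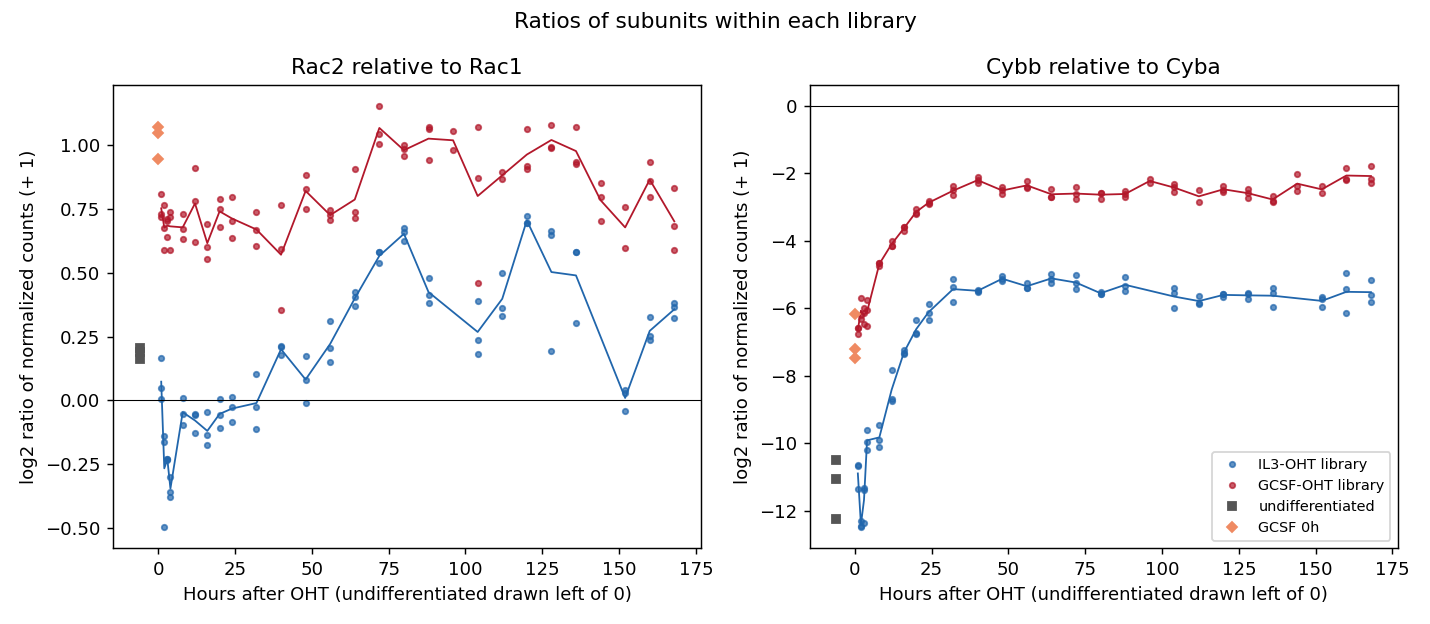
log2 ratio of normalized counts + 1 of *Rac2* to *Rac1* (left) and of *Cybb* to *Cyba* (right) in each library against hours after OHT, with lines through the group means and no correction for transcript length. *Rac2* relative to *Rac1* is higher in GCSF 0h (1.02 ± 0.07) than in undifferentiated libraries (0.19 ± 0.02), and *Cybb* relative to *Cyba* is -2.20 ± 0.10 at 40h in GCSF against -5.48 ± 0.03 in IL3.

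Ordered by their means over all 56 groups, the members differed in how finely the order could be read. *Cybb* ran from 0 in IL3-OHT 2h to 1645 ± 289.9 in GCSF-OHT 160h, and *Ncf4* from 9.49 ± 2.33 in IL3-OHT 4h to 966 ± 54.8 in GCSF-OHT 128h. *Ncf1* ran from 2904 ± 126.3 in IL3-OHT 3h to 9278 ± 773 in GCSF-OHT 144h, a 3.19-fold range. *Cyba* ran from 4877 ± 33.3 in undifferentiated to 10094 ± 810.1 in IL3-OHT 104h cells, a 2.07-fold range (each ± SD, n = 3). Of the 55 pairs of neighbours in each order, 42 for *Cybb*, 50 for *Cyba*, 52 for *Ncf1*, 47 for *Ncf4*, 52 for *Rac1* and 47 for *Rac2* differed by less than the larger SD of the pair. The median coefficient of variation within groups was 2.03% for *Rac1*, 3.32% for *Ncf1*, 3.63% for *Rac2*, 4.75% for *Cyba*, 9.34% for *Cybb* and 9.43% for *Ncf4*, the low-count members being the less precise.

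The patterns of the members over 54 group means, which share libraries and a time axis, were alike for some pairs. Pearson's r of log2(normalized count + 1) was 0.9498 for *Ncf4* with *Rac2*, 0.908 for *Cybb* with *Ncf1* and 0.883 for *Cybb* with *Ncf4*, but 0.169 for *Cyba* with *Rac2* and 0.0883 for *Ncf4* with *Rac1*. Within each course the values differed. Within the 26 groups of the IL3 course *Cyba* and *Cybb* had 0.868, and within the 28 of the GCSF course 0.877, against 0.459 over all. *Rac1* had 0.842 with *Cybb* within the GCSF course and 0.338 within the IL3 course.

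Among 10647 genes with a mean of at least 50 normalized counts, the 3 most like each member over the 54 groups were as follows. Of these 18 pairs of member and gene, 1 was again among the top 3 within the IL3 course alone and 0 within the GCSF course alone. For *Cybb* they were *Tbc1d2b* (r = 0.963), *Myo1f* (0.962) and *Dock8* (0.959). *Ncf4* was nearest to *Mfsd14b* (0.970), *Rcsd1* (0.968) and *Slc25a23* (0.967), and *Rac2* to *Tnrc6c* (0.959), *Ccdc88c* (0.947) and, again, *Slc25a23* (0.944). *Ncf1* was nearest to *Tmem38b* (0.964), *Jak3* (0.954) and *Chd3* (0.954). *Cyba* was nearest to *Dpf1* (0.900), *Acot7* (0.897) and *Cfp*, the gene of properdin (0.885). *Rac1* had the weakest matches, *Klhl2* (0.846), *Rala* (0.806) and *Tpd52* (0.794).

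Genes that work with the oxidase were read from 5 lists, as counts in the comparison of GCSF-OHT with IL3-OHT over 25 time points. Over all genes 9.34% were higher, 15.1% were lower and the median log2 difference was -0.06. Of the other oxidase components, 7 of 13 were tested and none was called (limma, 7 with an unadjusted p under 0.05). Of 15 regulators and relatives of Rac, 3 were higher and none lower (median 0.21). *Dock2*, an exchange factor that activates Rac in blood cells, had means of 290.2, 1061, 678 and 2049 normalized counts in undifferentiated, GCSF 0h, IL3-OHT 168h and GCSF-OHT 168h cells and a difference of 1.06 ± 0.01. *Arhgdib*, a GDP-dissociation inhibitor of small GTPases in blood cells, had 7721, 19106, 7146 and 16704 in the same order and a difference of 1.08 ± 0.01.

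Of 17 kinases upstream of the oxidase, 3 were higher and 1 lower (median 0.11). *Pik3cd*, a catalytic subunit of phosphoinositide 3-kinase, had 462, 859.8, 658 and 3769.6 and a difference of 1.47 ± 0.02. The lower one was *Pak1* (-1.93 ± 0.07), with means of 1.13, 2.76, 23.1 and 0.285, near the floor outside IL3-OHT. Of 12 genes for NADPH supply and the proton channel, 1 was higher and none lower (median 0.15). It was *Hvcn1*, the voltage-gated proton channel that balances the charge the oxidase moves, with 1487, 8028, 2120.4 and 7674 and a difference of 1.59 ± 0.01. Like *Rac2*, it stood high before OHT in GCSF. Of 20 enzymes that use or remove superoxide and peroxide, 1 was higher and 3 were lower (median -0.13). *Mpo*, which makes hypochlorous acid from the hydrogen peroxide that follows superoxide and is also a neutrophil marker here, had 3775, 8885, 2675 and 17018 and a difference of 2.19 ± 0.02. *Hmox1*, the heme-degrading enzyme, had 10670.3, 377, 7097 and 4026 and a difference of -1.60 ± 0.02.

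The same lists were counted against undifferentiated cells. Of the 7 other oxidase components tested, 2 were higher and 2 lower by the pre-treatment, 2 and 2 at GCSF-OHT 168h, and 2 and 1 at IL3-OHT 168h. By the pre-treatment 13.0% of all genes were higher and 20.7% lower, against 5 higher and none lower of the 15 Rac genes and 5 higher and none lower of the 17 kinases. Of the NADPH and proton channel genes 2 were higher and 1 lower, and of the superoxide and peroxide enzymes 2 were higher and 5 lower. At GCSF-OHT 168h, where 15.5% of all genes were higher and 23.6% lower, the counts were 6 higher and 1 lower for the Rac genes, 7 and none for the kinases, 3 and none for NADPH and the proton channel, and 4 and 7 for the enzymes. At IL3-OHT 168h, with 10.2% of all genes higher and 15.2% lower, they were 1 and none, 2 and none, 1 and 1, and 1 and 6.

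The time points that the authors excluded, IL3-OHT 96h and 144h, were compared with the mean of their neighbours in a fit that included them. None of the 6 subunits was called by limma at 96h, against 17.5% of 17439 genes, and none at 144h, against 15.4%. At an unadjusted p under 0.05 there were 2 at 96h, *Ncf1* (-0.17) and *Rac2* (0.18), and 1 at 144h, *Cyba* (0.18). These 3 also had an adjusted p under 0.05 and were not called because their fold was under the threshold.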

How the data were processed

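RNA-Seq was done by the authors on PUER cells. Per the methods, reads were quantified with Salmon on GRCm38 and scaled with DESeq2's median of ratios. The tool versions, the step from transcripts to genes and the strand setting are not given in the sources used here. The deposited values are a signal, gene counts divided by a size factor per library. All nonzero values were whole multiples of 1 read (tolerance 1e-09, relative), so reads were recovered. They gave 14600246 to 33147945 reads on genes per library, and 3 reads were the floor.

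Groups came from the labels. Genes with at least 5 normalized counts in at least 1 library were kept (17414 genes). log2(normalized count + 1) was fitted with limma 3.58.1 (R 4.3.3) over 54 groups, leaving out IL3-OHT 96h and 144h as the authors did. P-values were adjusted by Benjamini-Hochberg within each comparison, and a gene was called at adjusted p under 0.05 and a log2 fold change past 0.58 in size. The fit was tested on simulated data. The methods call the replicates biological, and the p-values measure only the spread between these libraries. Alternatives were edgeR 4.0.16 and DESeq2 1.42.0 on the recovered reads, pseudocounts of 0.5 and 5, other filters and scaling, the groups compared alone, a replicate block and leaving out replicates.

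Counting intervals are exact 95% intervals and, like the floor, cover counting error only. Pairs of replicate libraries had a mean chi-square per gene of 2.29 to 73.2, above the value for counting error alone. Transcripts and positions are from GENCODE vM21, promoters from RefSeq, and BLASTN 2.17.0 searched for near-identical transcripts. Named genes are the 6 subunits, *Cybc1*, the 3 genes most like each subunit, and of each other list the 2 called genes with the largest difference between the courses. The members and lists were chosen with earlier results of these data known. Not every gene this rule names is reported here.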

Additional observations from a re-analysis of the deposited data

Results flagged for a closer look

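The interaction test in limma, with every course measured from its own start, called 1 of the 6 subunits at 8h, against 27.4% of all genes, and 2 of 6 at 168h, against 25.7%. For *Ncf1* at 8h the difference was 0.62 on the log2 scale (SE 0.07, adjusted p = 1.23e-12), from lower than undifferentiated in 3 of 3 IL3-OHT libraries and higher than GCSF 0h in 3 of 3 GCSF-OHT libraries. This call was lost without the first replicates (0.55) and without the third (0.58). For *Cybb* at 168h it was -1.23 (SE 0.30, adjusted p = 2.51e-04), against a start in IL3 that rests on 3 reads. It was -0.12 and not called without the second replicates, and it changed sign to 0.23 with 5 in place of 1 as the added count. For *Ncf4* at 168h it was -1.05 (SE 0.27, adjusted p = 7.57e-04), against a start in IL3 of 7, 18 and 19 reads.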

How the results depend on the processing

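Of the values that answer a comparison, 673 kept their direction and their side of the threshold under the alternatives, 22 kept only their direction or changed as counts, and 8 changed sign. Among those 8, only the *Cybb* interaction at 168h was a called value, -1.23 with 1 added and 0.23 with 5 added. It was -1.23 but not called in a fit of only the groups compared. When replicates were left out it ran from -2.02 to -0.12, the latter without the second. Of the 6 subunits 2 were called there, but 1 with 5 added, 1 with only the groups compared and from 1 to 2 without replicates. At 8h, 1 was called, but 2 with 5 added, 2 with a mean of at least 10 normalized counts, 2 without the second GCSF 0h library (chosen after seeing the data) and from 0 to 2 without replicates, 0 without the third and 2 without the second. The *Cybb* interaction at 8h (0.48) was 1.36 with 5 added, 0.88 without the second GCSF 0h library and from -0.11 to 1.60 without replicates, and its sign changed with edgeR (-0.11), DESeq2 (-0.19) and without the first or the third replicates. *Rac2* from GCSF 0h to GCSF-OHT 168h (0.01) was -0.016 with upper-quartile scaling and from -0.015 to 0.032 without replicates, and the *Rac1* interaction at 8h (-0.03) was from -0.060 to 0.0090 without replicates. That of *Ncf4* (0.61) was called with a mean of at least 10 (0.61) and ran from 0.015 to 1.06 without replicates, and that of *Ncf1* (0.62) from 0.55 to 0.74. *Cyba* at IL3-OHT 168h (0.59) ran from 0.57 to 0.62. Called steps in GCSF (3) ran from 2 to 5, with 5 without the second replicates. Of the 18 pairs of a subunit and a gene most like it, 8 were again in the top 3 with unlogged counts, 1 within the IL3 course and 0 within the GCSF course. The called time points of *Ncf1* fell from 5 to 3 in IL3 and from 4 to 2 in GCSF with upper-quartile scaling. *Rac1* had 1 in GCSF without the first or the second replicates. The cause of these changes was not tested.

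Replicate numbers were not taken to pair the libraries, since same-numbered libraries of the 4 pairs of groups compared had correlations of -0.05 to 0.08. Counting a library once for each pair of groups, 13 of 24 correlated best with their own number, among them all 6 of undifferentiated against IL3-OHT 168h, a hint from the data and not from the design. With a replicate block the called subunits were 3, 3, 4, 2, 2, 1 and 2 in the order of the comparisons above, called time points 67, 46 and 68 and called steps 10 and 3, the same counts as without the block. Depth limits *Cybb* in IL3 before 4h and in undifferentiated cells, where the 3 libraries of a group together held 5 reads or fewer.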
